A study of Homo sapiens with 12 samples.

Results

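The response to Matrigel was set side by side in A549, a line from a human lung adenocarcinoma with epithelial keratins, and MDA-MB-231, a mesenchymal-like line from a hormone receptor-negative human breast carcinoma. All 12 libraries of the series entered the comparison, in 4 groups of 3: A549 and MDA-MB-231, each in flat culture (2D) and each in Matrigel (3D). Both lines grew in DMEM with 10% FBS in both formats and received no treatment. RNA was isolated with TRIZOL at roughly 80% confluence from 2D cultures and on day 4 from 3D cultures, so that matrix, cell density and time in culture cannot be told apart. Libraries came from a stranded kit for total RNA that depletes ribosomal RNA. Each cancer type is represented by 1 line, and the labels do not state whether the libraries of a group are separate cultures. The p-values therefore measure library-to-library spread only, and that may be technical.

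For each gene, the 3D change in A549 (log2 of 3D over 2D) was compared with the 3D change in MDA-MB-231. The difference between the lines is the A549 change minus the MDA-MB-231 change, so a positive value means that the response was more positive in A549. Of 27968 gene symbols listed, 15304 had enough reads to be tested.

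Matrigel is an extract of basement membrane rich in laminin, type IV collagen and entactin. Cells embedded in it lose the stiff flat support on which stress fibres form, and contact it through integrins and other matrix receptors. Actin assembly frees the coactivators MRTF-A and MRTF-B to act with the transcription factor SRF, and cell spreading brings YAP and TAZ into the nucleus. Epithelial cells in such gels often round up into tight groups held by cadherin junctions, whereas mesenchymal cells tend to stay single or to invade.

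Total expected counts ran from 5609327 to 28171901 per library, and the 3 A549 3D libraries spanned that whole range. Their biological coefficient of variation, the spread between libraries beyond counting error, was 0.179, against 0.0368 in flat A549 cultures and 0.0539 and 0.0563 in the flat and Matrigel cultures of MDA-MB-231. Ribosomal RNA genes took up a mean of 0.412% of flat A549 libraries and 8.34% of those in Matrigel, with 16.6% in 1 of them, and 1.51% and 5.62% in MDA-MB-231. Estimated fragment length fell from a mean of 181 to 138 bases in A549 and from 213 to 185 in MDA-MB-231, with no overlap between the cultures of either line (exact permutation test, two-sided p = 0.1, the smallest that 3 against 3 allows). Small RNA genes took up a mean of 1.58% of flat A549 libraries and 6.66% of those in Matrigel, against 0.00048% and 0.0029% in MDA-MB-231, and histone genes 0.794% and 0.939% against 0.0268% and 0.0181%. The labels do not state whether the libraries of the lines were prepared together, and a difference in preparation and the line cannot be told apart where levels are compared between the lines. With small RNA, ribosomal RNA and histone genes removed, 97.6% of the opposite calls described below were kept. These measures moved with the culture by unequal amounts in the lines, and their part in the results was not tested beyond the alternatives given with the processing. Leaving out the A549 3D libraries 1 and 2 together kept 84.5% of those calls, but A549 3D is then a single library that is assumed to vary like the other groups, whose spread was smaller.

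The line labels were checked against marker genes. The summed level of 12 A549 markers was 20720.0 to 21120.0 CPM (counts scaled to the TMM-adjusted library size) in A549 2D and 54240.0 to 54680.0 in 3D, against 887 to 1712 in the MDA-MB-231 libraries. ALDH1A1 and AKR1B10, enzymes typical of A549, were at or under 0.271 CPM in every MDA-MB-231 library, but the lung markers SFTPC and NKX2-1 were also at or under 0.251 CPM in every A549 library. EPCAM, KRT19 and NKX2-1 of the A549 list went against the label in flat culture. EPCAM was at a mean of 4.03 CPM in A549 and 23.0 in MDA-MB-231, KRT19 at 43.1 and 114 CPM and NKX2-1 at 0 and 0.886. KRT19 was also lower in A549 in Matrigel, at 380.5 CPM against 522.1. The summed level of 12 genes chosen for MDA-MB-231, which include the receptors ESR1 and PGR as absent markers, was 6204 to 9146 CPM in that line and 2145 to 3023 in A549, with VIM as the leading gene in both lines. SPARC and CAV1 of this list went against it in flat culture. Mean levels were 15.6 CPM in A549 and 0.404 in MDA-MB-231 for SPARC, and 704.5 and 582.6 for CAV1. EPCAM, given above, is on this list too. ESR1 did not exceed 0.316 CPM and PGR 0.219 CPM in MDA-MB-231. Of 8 leukocyte markers 4 could be tested, and the sum of the list was 9.07 to 10.7 CPM in flat A549 cultures, 33.2 to 53.8 in Matrigel, 94.7 to 110.4 in flat MDA-MB-231 cultures and 240.7 to 270.5 in Matrigel. CD68 was its leading gene in MDA-MB-231, while in A549 ITGAM led in 2D (4.04 CPM, CD68 3.73) and CD14 in 3D (20.4 CPM, CD68 19.5). The defining leukocyte genes CD3E and MS4A1 were at 0 in all 12 libraries, and PTPRC stayed at or under 0.564 CPM. Of 7 endothelial markers 3 were tested (sums of 0.781 to 14.7 CPM in A549 and 137 to 208 in MDA-MB-231, mostly ESAM), of 8 fibroblast markers 6 (10.6 to 22.9 CPM in all libraries), and of 6 erythroid markers 0. Because the RNA is bulk RNA, a change in the share of cells in some state and a change in the RNA per cell cannot be told apart.

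The lines differed in their response at most measured genes. Of 15304 genes tested, 8582 (56.1%) had a 3D change that differed between the lines at an adjusted p under 0.05 (edgeR's quasi-likelihood test, Benjamini-Hochberg). The change was more positive in A549 for 4489 genes (29.3%) and more positive in MDA-MB-231 for 4093 (26.7%), and the difference was at least 2-fold for 4052. Within the lines, 5222 genes (34.1%) rose and 4820 (31.5%) fell in A549, and 5118 (33.4%) rose and 5234 (34.2%) fell in MDA-MB-231. These shares are the background against which each gene group below is read.

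Opposite changes were frequent but mostly small. A gene was called opposite when the difference between lines passed and the change passed in each line with opposite signs. This held for 1067 genes that rose in A549 and fell in MDA-MB-231 (6.97%) and for 1104 that fell in A549 and rose in MDA-MB-231 (7.21%). In 2026 of these 2171 genes the libraries of the 2 cultures did not overlap in either line. Both changes were at least 2-fold in 307 genes, of which 220 rose in A549 and 87 fell there. Of the 307, 176 had a mean of at least 1 CPM in at least 1 culture of each line, and the rest were under that level in a line. Among genes with a called difference that were not opposite, 1838 passed in A549 alone, 2320 in MDA-MB-231 alone and 103 in neither. A further 2150 moved the same way by unequal amounts, 973 of them further in A549. Deposited TPM values without rescaling put the median change of all tested genes at -0.38 in A549 and -0.25 in MDA-MB-231, where the TMM scale puts them at 0.031 and 0. On that scale the direction of small changes turns, and 35% of the opposite calls were kept. After the TPM values were scaled by TMM, 85.7% were kept. The 307 genes with 2-fold changes in each line kept both signs on each of these scales, but fewer of them were again called opposite with 2-fold changes in each line: 40 on log2(TPM + 1), 129 on log2(TPM + 0.1) and 64 on log2(TPM + 1) after TMM scaling.

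**Figure D1:**
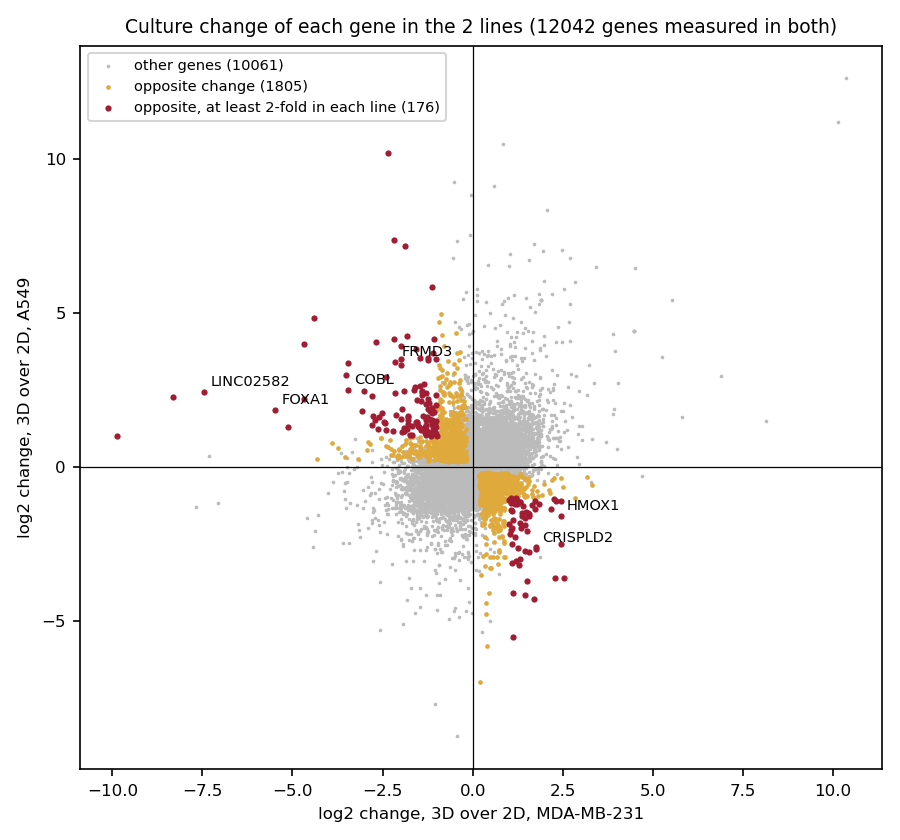
Each point is 1 of 12042 genes with a mean of at least 1 CPM in at least 1 culture of each line. The x axis is the log2 change (3D over 2D) in MDA-MB-231, the y axis that in A549, and colours mark genes with opposite changes, with the 176 that were at least 2-fold in each line darker than the other 1805. The points form a cloud with a weak tilt, and the coloured genes fill the upper left and lower right quadrants.

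Across the 12042 genes measured in both lines, the changes had a Pearson r of 0.305, given as a description across genes, which are not independent replicates and share library scaling. The lines moved apart as well as together. Of 7712 genes with a called difference that were measured in both lines, the expression ratio between the lines was larger in 3D than in 2D for 4491 and smaller for 3221. The SD over genes of the log2 ratio of A549 to MDA-MB-231 was 1.49 in 2D and 1.63 in 3D.

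Genes that rose in A549 and fell in MDA-MB-231 were led by COBL, LAMA4, LINC02582 and the cadherin gene CDH1. These leading genes, in both orientations, had to show no overlap of the cultures in either line and were ranked by the smaller of their 2 changes. Their fold changes and the lack of overlap therefore describe the selection, and the libraries are given to show the levels. COBL, an actin nucleator of the apical brush border, was at 5.42, 5.26 and 5.23 CPM in flat A549 cultures, 33.4, 27.1 and 28.9 in Matrigel, 4.09, 4.07 and 4.30 in flat MDA-MB-231 cultures and 0.355, 0.262 and 0.493 in Matrigel. In flat culture the lines were close, and in Matrigel every A549 library was above 27 and every MDA-MB-231 library under 0.5. Its change was 2.49 ± 0.11 in A549 and -3.46 ± 0.22 in MDA-MB-231 (log2 ± SE, as below), a difference of 5.95 ± 0.23 (adjusted p = 5.02e-11). This SE is the absolute change divided by the square root of the F value of the quasi-likelihood test. Where a group has few counts, it can fall below the counting error. FRMD3, a FERM-domain protein of the protein 4.1 family, was at 5.20, 6.96 and 6.58 CPM in flat A549 cultures, 66.6, 76.0 and 60.7 in Matrigel, 24.3, 24.3 and 29.6 in flat MDA-MB-231 cultures and 5.69, 5.61 and 6.35 in Matrigel. The order of the lines was therefore reversed between the cultures, and the difference was 5.56 ± 0.18 (adjusted p = 7.74e-12). LAMA4, the laminin alpha 4 chain found in vascular and mesenchymal basement membranes, was at 1.27, 1.44 and 1.57 CPM in flat A549 cultures, 6.39, 5.27 and 10.1 in Matrigel, 28.2, 31.1 and 28.7 in flat MDA-MB-231 cultures and 4.35, 3.41 and 3.40 in Matrigel. Every 3D library lay above every 2D library in A549 and below in MDA-MB-231, with a difference of 5.49 ± 0.27 (adjusted p = 4.96e-10). LINC02582, a long non-coding RNA, had the largest difference of this group. It was at 4.59, 4.09 and 6.18 CPM in flat A549 cultures, 37.7, 30.5 and 16.8 in Matrigel, 33.4, 30.4 and 36.4 in flat MDA-MB-231 cultures and 0, 0.157 and 0.329 in Matrigel, a difference of 9.89 ± 0.52 (adjusted p = 7.98e-10) that rests on 9 counts over the MDA-MB-231 3D libraries.

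FOXA1, the pioneer factor that opens chromatin for hormone receptors and epithelial genes, separated the lines further in Matrigel. It was at 12.3, 12.8 and 11.3 CPM in flat A549 cultures, 45.9, 47.9 and 39.7 in Matrigel, 2.70, 2.89 and 3.65 in flat MDA-MB-231 cultures and 0, 0.105 and 0.0548 in Matrigel. The MDA-MB-231 level was 49.8 times lower in 3D (exact 95% counting interval 16.8 to 244, from 212 and 3 counts), while A549 rose by 1.86 ± 0.11. The polarity gene LLGL2, a basolateral scaffold of the Scribble group, was at 26.3, 27.3 and 28.1 CPM in flat A549 cultures, 97.3, 75.4 and 102 in Matrigel, 5.36, 6.87 and 5.82 in flat MDA-MB-231 cultures and 1.07, 0.944 and 1.15 in Matrigel. The cultures did not overlap in either line, a difference of 4.27 ± 0.22 (adjusted p = 7.45e-10). PLSCR4, a member of the phospholipid scramblase family, was at 6.47, 7.87 and 7.30 CPM in flat A549 cultures, 38.9, 51.6 and 32.5 in Matrigel, 11.9, 10.9 and 11.3 in flat MDA-MB-231 cultures and 3.29, 3.67 and 2.19 in Matrigel, and the libraries of the cultures did not overlap in either line (difference 4.37 ± 0.25, adjusted p = 2.24e-09).

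In the opposite orientation CRISPLD2, HMOX1 and FAM167A led, followed by a pair of actin cross-linkers, FLNA and FSCN1. FLNA, filamin A, joins actin filaments to membrane receptors and was at 3262, 3352 and 3695 CPM in flat A549 cultures, 1329, 899 and 1394 in Matrigel, 1217, 1279 and 1087 in flat MDA-MB-231 cultures and 3582, 3398 and 3718 in Matrigel. The flat libraries of A549 overlapped in level with the Matrigel libraries of MDA-MB-231, and the reverse also held, with a difference of -3.09 ± 0.19 (adjusted p = 3.56e-09). FSCN1, fascin, bundles actin in filopodia and was at 124, 131 and 148 CPM in flat A549 cultures, 57.7, 36.5 and 49.1 in Matrigel, 14.1, 16.8 and 14.1 in flat MDA-MB-231 cultures and 41.0, 41.9 and 47.5 in Matrigel. It fell in A549 and rose in MDA-MB-231 without overlap of the cultures (difference -3.01 ± 0.19, adjusted p = 4.45e-09). HMOX1, the haem-degrading enzyme induced by oxidants and haem, was at 155, 166 and 173 CPM in flat A549 cultures, 53.8, 38.1 and 66.9 in Matrigel, 3.63, 3.61 and 3.86 in flat MDA-MB-231 cultures and 19.3, 19.6 and 21.3 in Matrigel. A549 stayed above MDA-MB-231 in both cultures, and the gap between the lines narrowed, with a difference of -4.03 ± 0.22 (adjusted p = 1.04e-09). PFKP, the platelet isoform of phosphofructokinase, which commits glucose to glycolysis, was at 528, 526 and 533 CPM in flat A549 cultures, 172, 207 and 189 in Matrigel, 199, 182 and 172 in flat MDA-MB-231 cultures and 491, 457 and 483 in Matrigel. Here too the order of the lines reversed, with a difference of -2.86 ± 0.12 (adjusted p = 6.15e-11). CRISPLD2, a secreted protein with a lipopolysaccharide-binding LCCL domain, was at 4.42, 6.01 and 5.62 CPM in flat A549 cultures, 0.125, 0.195 and 1.26 in Matrigel, 6.67, 6.82 and 6.47 in flat MDA-MB-231 cultures and 22.2, 22.7 and 22.6 in Matrigel, and A549 3D replicate 3 lay above the other libraries of its group (difference -4.40 ± 0.35, adjusted p = 5.83e-08). The other 3 genes were FAM167A, ELFN2 and TMEM132A, with mean levels that went from 8.16 to 0.956 CPM in A549 and from 13.5 to 39.4 in MDA-MB-231 for FAM167A, from 12.1 to 3.65 CPM in A549 and from 6.13 to 16.8 in MDA-MB-231 for ELFN2, and from 104 to 36.8 CPM in A549 and from 52.2 to 145 in MDA-MB-231 for TMEM132A.

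**Figure D2:**
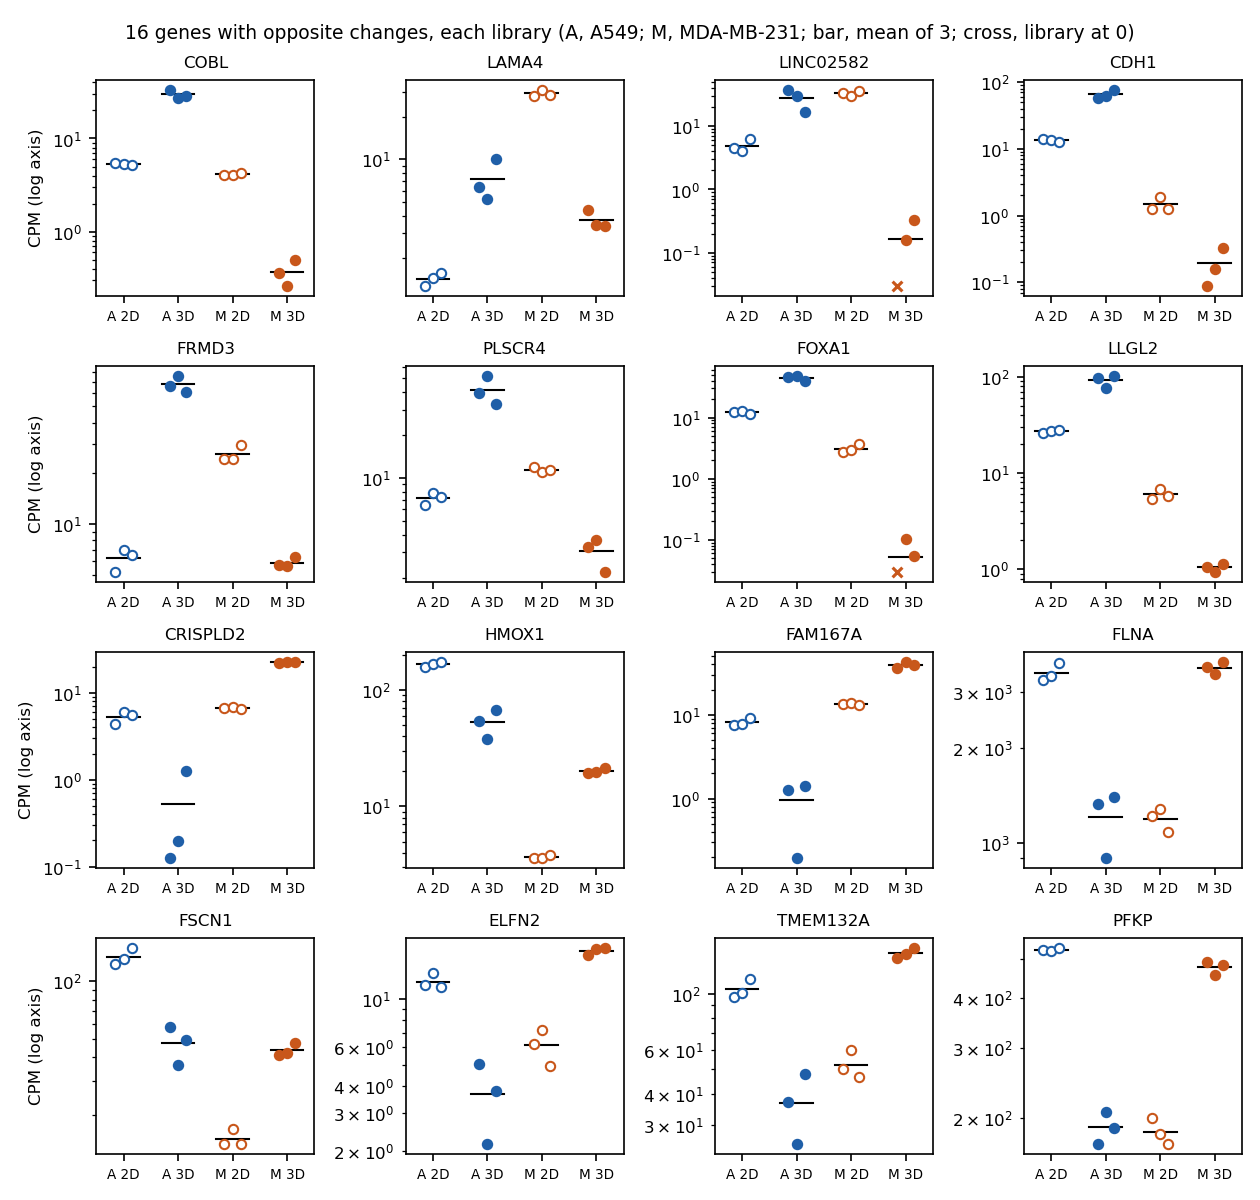
CPM of the 16 leading genes with opposite changes in each of the 12 libraries, on a log axis, with A for A549 and M for MDA-MB-231; points are libraries, bars are means of 3 and a cross marks a library at 0. In the upper 8 genes the A549 points rise and the MDA-MB-231 points fall from 2D to 3D, and in the lower 8 the pattern is reversed. The cultures do not overlap in either line, which the selection of these genes required.

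Cell junction genes followed the orientation of COBL and LLGL2. Of 27 tested genes of adherens junctions, tight junctions and desmosomes, 19 had a more positive response in A549 and 1 in MDA-MB-231. In A549 17 rose and 2 fell, and in MDA-MB-231 8 rose and 13 fell, a lean that held in the same direction on each scaling tried. Their median change was 1.37 in A549 and -0.37 in MDA-MB-231, and their median difference was 0.92, against 0.070 for all genes. Opposite changes, all up in A549, were found in 6 of them. CDH1, E-cadherin, the adhesion receptor of adherens junctions, was at 13.9, 13.8 and 12.8 CPM in flat A549 cultures, 57.9, 62.7 and 76.7 in Matrigel, 1.27, 1.90 and 1.26 in flat MDA-MB-231 cultures and 0.0889, 0.157 and 0.329 in Matrigel. It rose in A549 without overlap and fell to near 0 in MDA-MB-231, which already held little in 2D (difference 5.09 ± 0.39, adjusted p = 4.43e-08). DSP, desmoplakin, which anchors keratin filaments to desmosomes, was at 84.8, 88.4 and 85.4 CPM in flat A549 cultures, 237, 229.5 and 272 in Matrigel, 296, 281 and 278 in flat MDA-MB-231 cultures and 178, 200.3 and 200.4 in Matrigel. A549 passed from below MDA-MB-231 in 2D to above it in 3D, a difference of 2.08 ± 0.11 (adjusted p = 1.27e-09). PKP2, a desmosomal plaque protein, changed by 1.40 ± 0.11 in A549 and -1.11 ± 0.090 in MDA-MB-231. EPCAM, an epithelial adhesion protein, went from 4.03 to 13.7 CPM in A549 and from 23.0 to 8.78 in MDA-MB-231, with changes of 1.66 ± 0.18 in A549 and -1.39 ± 0.15 in MDA-MB-231. MARVELD2, tricellulin, which seals the points where cells meet, changed by 1.37 ± 0.17 in A549 and -0.67 ± 0.19 in MDA-MB-231.

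Transcription factors of epithelial lineages moved in the same orientation. Of 25 tested, 16 had a more positive response in A549 and 2 in MDA-MB-231. In A549 17 rose and 3 fell and in MDA-MB-231 3 rose and 9 fell, a lean that no scaling turned, with a median difference of 2.32 (2.23 with genes that had a group at 0 set to their bound). FOXA1 was 1 of 7 with opposite changes, all up in A549. KLF5, a regulator of basal and luminal epithelial growth, was at 37.8, 33.9 and 34.7 CPM in flat A549 cultures, 114, 118 and 89.4 in Matrigel, 36.6, 37.0 and 35.3 in flat MDA-MB-231 cultures and 16.4, 19.7 and 20.2 in Matrigel. The lines overlapped in 2D and did not in 3D (difference 2.53 ± 0.15, adjusted p = 3.78e-09). ELF3, an epithelium-specific ETS factor, was at 169, 160.3 and 158 CPM in flat A549 cultures, 336, 291 and 342 in Matrigel, 5.87, 5.06 and 5.34 in flat MDA-MB-231 cultures and 1.69, 1.78 and 1.70 in Matrigel. Its level rose in A549 and fell in MDA-MB-231, with a difference of 2.64 ± 0.16 (adjusted p = 3.48e-09). HNF4G, a nuclear receptor of the gut and liver lineage, changed by 1.53 ± 0.16 in A549 and -1.81 ± 0.22 in MDA-MB-231. SOX2, a factor of airway and stem cell identity, changed by 1.60 ± 0.21 in A549 and -2.12 ± 0.48 in MDA-MB-231 and GATA2 by 1.502 ± 0.21 in A549 and -0.72 ± 0.17 in MDA-MB-231. NR2F1, an orphan nuclear receptor, changed by 0.48 ± 0.13 in A549 and -1.79 ± 0.12 in MDA-MB-231, and its A549 sign turned on unscaled TPM. EHF, another epithelial ETS factor, rose in both lines, by 5.48 ± 0.090 in A549 and 1.49 ± 0.068 in MDA-MB-231.

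Keratins and secretory products split within the group. Of 21 tested keratins, mucins and trefoil genes, 11 had a more positive response in A549 and 3 in MDA-MB-231, and 4 had opposite changes. Among all tested genes 6.97% were opposite and up in A549 and 7.21% opposite and down. KRT7 and KRT80 fell in A549 and rose in MDA-MB-231, the rise of KRT7 not on unscaled TPM. KRT80 was at 81.5, 85.7 and 77.4 CPM in flat A549 cultures, 9.40, 4.69 and 10.7 in Matrigel, 61.3, 74.5 and 64.1 in flat MDA-MB-231 cultures and 158, 168 and 162 in Matrigel, a difference of -4.45 ± 0.20 (adjusted p = 1.91e-10). KRT7, a keratin of simple epithelia and an A549 marker, changed by -1.83 ± 0.11 in A549 and 0.31 ± 0.11 in MDA-MB-231. KRT8, the partner of KRT18 in simple epithelia, rose in both lines, by 1.80 ± 0.10 in A549 and 0.60 ± 0.10 in MDA-MB-231. TFF1, a secreted trefoil peptide of mucous cells, was at 0.276, 0.319 and 0.393 CPM in flat A549 cultures, 14.5, 27.1 and 18.3 in Matrigel, 1.18, 1.58 and 1.30 in flat MDA-MB-231 cultures and 0.711, 0.681 and 0.493 in Matrigel. TFF1 therefore switched from the higher level in MDA-MB-231 to the higher level in A549 (difference 6.98 ± 0.45, adjusted p = 7.49e-09). AGR2, a protein disulfide isomerase that folds mucins, rose in both lines and further in A549, from 118 to 1455 CPM in A549 and from 17.3 to 24.8 in MDA-MB-231 (difference 3.10 ± 0.17, adjusted p = 1.48e-09).

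Genes of the actin cytoskeleton held the highest share of opposite changes among the 43 gene groups, with most falling in A549. Of 31 tested SRF targets and actin genes, 21 had a more positive response in MDA-MB-231 and 8 in A549, and 20 had opposite changes, 17 of them down in A549 and up in MDA-MB-231. In A549 5 rose and 26 fell. In MDA-MB-231 18 rose and 10 fell, a lean that is absent on unscaled TPM, where 11 rose and 12 fell and 13 changes were opposite. The median change was -0.84 in A549 and 0.45 in MDA-MB-231, and the median difference was -1.52. ACTB, cytoplasmic beta-actin, was at 4102, 3964 and 4015 CPM in flat A549 cultures, 2937, 2062 and 2989 in Matrigel, 2077, 2292 and 1945 in flat MDA-MB-231 cultures and 4125, 4308 and 4331 in Matrigel. ACTG1, gamma-actin, was at 5784, 5721 and 5736 CPM in flat A549 cultures, 3421, 3268 and 3417 in Matrigel, 1861, 1979 and 1665 in flat MDA-MB-231 cultures and 4191, 3941 and 4118 in Matrigel. These copies are nearly identical and could trade reads, but both changed the same way, with differences of -1.61 ± 0.17 and -1.92 ± 0.11 (adjusted p = 9.19e-07 and 2.24e-09).

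Regulators and cross-linkers moved with the actins. SRF itself was at 33.3, 33.8 and 32.1 CPM in flat A549 cultures, 11.7, 9.77 and 13.4 in Matrigel, 81.2, 98.3 and 81.6 in flat MDA-MB-231 cultures and 108, 118 and 120.2 in Matrigel. It fell in A549 and rose in MDA-MB-231 (difference -1.86 ± 0.15, adjusted p = 8.05e-08), although on unscaled TPM the MDA-MB-231 sign turned for SRF and for VCL, vinculin. The SRF coactivators parted: MKL1, which encodes MRTF-A, changed by -1.19 ± 0.19 in A549 and 0.77 ± 0.19 in MDA-MB-231, and MKL2, which encodes MRTF-B, by 1.01 ± 0.14 in A549 and -0.65 ± 0.14 in MDA-MB-231. MYH9, the heavy chain of non-muscle myosin II, was at 838, 895 and 934 CPM in flat A549 cultures, 532, 377 and 541 in Matrigel, 871, 867 and 803 in flat MDA-MB-231 cultures and 1891, 1881 and 2026 in Matrigel. It fell in A549 and rose by more in MDA-MB-231 on the log scale, a difference of -2.07 ± 0.16 (adjusted p = 4.65e-08). CFL1, cofilin, which severs filaments, changed by -0.68 ± 0.10 in A549 and 0.97 ± 0.10 in MDA-MB-231, and ZYX, zyxin of focal adhesions, by -0.77 ± 0.18 in A549 and 0.95 ± 0.16 in MDA-MB-231. PDLIM7, a scaffold on actin bundles, had a difference of -3.20 ± 0.21 (adjusted p = 9.52e-09). Members with the other orientation were PDLIM5, at 214, 203 and 197 CPM in flat A549 cultures, 922, 1093 and 784 in Matrigel, 207, 223 and 215 in flat MDA-MB-231 cultures and 164, 183 and 168 in Matrigel, and LIMA1, which stabilises filaments and changed by 0.94 ± 0.077 in A549 and -0.67 ± 0.068 in MDA-MB-231. TPM1, a tropomyosin of stress fibres, fell in both lines but further in A549, with a difference of -1.88 ± 0.10 (adjusted p = 1.02e-09).

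**Figure D3:**
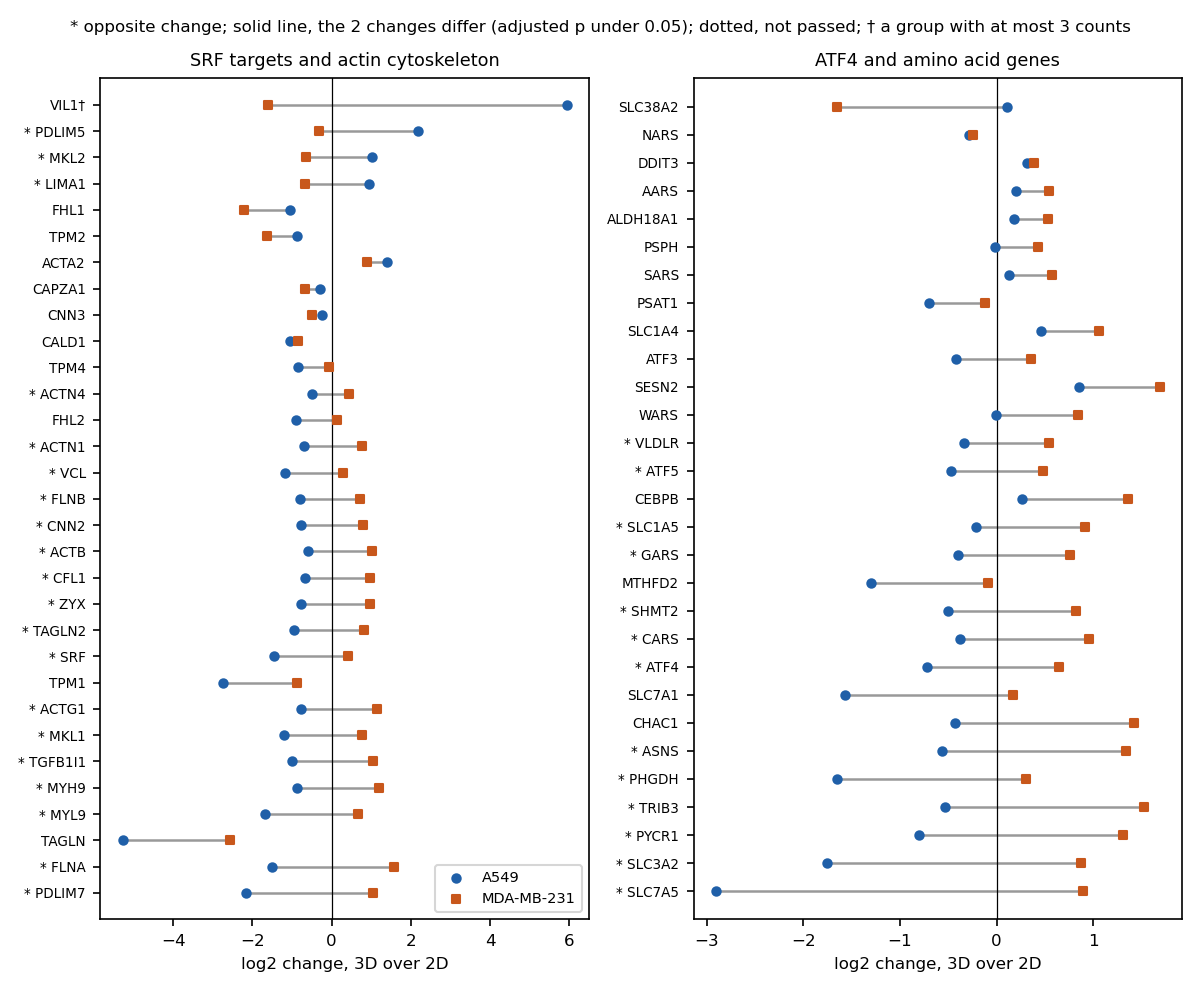
Log2 change (3D over 2D, x axis) of each tested gene of the actin group and of the ATF4 and amino acid group in A549 and MDA-MB-231, joined by a line that is solid where the difference between lines passed; asterisks mark opposite changes and a dagger a group with at most 3 counts. In both groups most A549 points lie left of 0 and most MDA-MB-231 points to the right, 18 of 31 and 24 of 29 rising in MDA-MB-231, although on unscaled TPM the actin group has 11 rising and 12 falling there.

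Most targets of YAP and TAZ fell in A549, where 31.5% of all tested genes fell. In MDA-MB-231 they were nearer the background of 33.4% rising and 34.2% falling. Of 28 tested, 14 had a more positive response in MDA-MB-231 and 7 in A549, with 5 opposite changes. In A549 5 rose and 19 fell, and in MDA-MB-231 8 rose and 12 fell, where removing a trend with gene length gave 12 and 11. CYR61, a matricellular protein and a standard YAP target, was at 35.0, 37.6 and 39.3 CPM in flat A549 cultures, 6.02, 5.08 and 4.65 in Matrigel, 751, 718 and 760.1 in flat MDA-MB-231 cultures and 924, 901 and 916 in Matrigel. Every A549 3D library was under every 2D library, and the MDA-MB-231 rise was small (0.30 ± 0.073, difference -3.17 ± 0.13, adjusted p = 6.59e-11). AJUBA, a LIM protein that restrains Hippo kinases, was at 235, 255 and 259 CPM in flat A549 cultures, 32.97, 34.4 and 37.2 in Matrigel, 166, 168 and 165 in flat MDA-MB-231 cultures and 211, 219 and 214 in Matrigel. Its difference was -3.20 ± 0.10 (adjusted p = 6.11e-12), and the order of the lines switched. AXL, a receptor kinase of mesenchymal cells, fell in A549 and rose in MDA-MB-231, from 360.0 to 87.5 CPM in A549 and from 709.6 to 1193 in MDA-MB-231. The small rises of CYR61, AJUBA and FJX1 in MDA-MB-231 turned sign on unscaled TPM. NT5E, the ectonucleotidase CD73, had the other orientation, with changes of 1.03 ± 0.13 in A549 and -0.39 ± 0.12 in MDA-MB-231.

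TGF-beta readouts fell in A549 without a matching fall in MDA-MB-231. Of 24 tested targets and SMAD genes, 11 had a more positive response in MDA-MB-231 and 3 in A549, and 7 of 8 opposite changes were down in A549. In A549 4 rose and 16 fell, and in MDA-MB-231 10 rose and 9 fell, against 3 and 12 on unscaled TPM and 8 and 9 without MDA-MB-231 3D replicate 3. PMEPA1, a feedback inhibitor of the pathway, was at 211, 222 and 234 CPM in flat A549 cultures, 11.03, 10.3 and 10.1 in Matrigel, 35.1, 38.2 and 35.5 in flat MDA-MB-231 cultures and 44.7, 49.3 and 46.2 in Matrigel. It was higher in A549 than in MDA-MB-231 in 2D and lower in 3D, with a difference of -4.78 ± 0.12 (adjusted p = 3.68e-13), and its small MDA-MB-231 rise turned sign on unscaled TPM. TGFBI, a secreted adhesion protein, fell in A549 and rose in MDA-MB-231, from 1490.0 to 272 CPM in A549 and from 53.7 to 98.5 in MDA-MB-231. SMAD7, an inhibitory SMAD, changed by -1.93 ± 0.12 in A549 and 0.62 ± 0.15 in MDA-MB-231. TGFBR3, the co-receptor betaglycan, ran the other way and was at 17.9, 19.4 and 19.6 CPM in flat A549 cultures, 54.8, 60.8 and 54.2 in Matrigel, 38.4, 40.6 and 41.7 in flat MDA-MB-231 cultures and 10.8, 10.1 and 9.53 in Matrigel, a difference of 3.57 ± 0.12 (adjusted p = 1.03e-11).

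Among proteases and their inhibitors 12 of 30 genes had opposite changes, 10 of them down in A549. In A549 7 rose and 15 fell, and in MDA-MB-231 15 rose and 8 fell, against 11 and 12 on unscaled TPM. MMP14, a membrane-anchored collagenase of invading cells, was at 1.16, 1.49 and 1.01 CPM in flat A549 cultures, 0.877, 0.195 and 0.631 in Matrigel, 561, 548 and 492 in flat MDA-MB-231 cultures and 1583, 1737 and 1829 in Matrigel. MDA-MB-231 rose from a level that was already high while A549 stayed near 1 CPM or under (difference -2.65 ± 0.31, adjusted p = 3.48e-06). PLAU, urokinase, which activates plasminogen, was at 212, 214 and 218 CPM in flat A549 cultures, 17.1, 17.2 and 28.9 in Matrigel, 348, 351 and 341 in flat MDA-MB-231 cultures and 479.9, 492 and 486 in Matrigel. It was the A549 fall that carried the difference of -3.76 ± 0.19 (adjusted p = 5.8e-10). TIMP2, an inhibitor that also helps MMP14 activate MMP2, was at 132, 128 and 123 CPM in flat A549 cultures, 61.3, 39.3 and 70.6 in Matrigel, 345, 384 and 351 in flat MDA-MB-231 cultures and 795, 837 and 833 in Matrigel, a difference of -2.32 ± 0.19 (adjusted p = 9.06e-08). ADAM8, a membrane metalloprotease, changed by -0.99 ± 0.29 in A549 and 1.71 ± 0.11 in MDA-MB-231, and ADAMTS15, which cleaves versican, by -2.96 ± 0.15 in A549 and 1.30 ± 0.087 in MDA-MB-231. TIMP3, a matrix-bound inhibitor, had the reverse orientation, from 1.63 to 3.02 CPM in A549 and from 758 to 434 in MDA-MB-231.

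Matrix genes moved apart chain by chain. Of 24 tested collagen chains, 12 had a more positive response in MDA-MB-231 and 4 in A549. In A549 3 rose and 15 fell. In MDA-MB-231 8 rose and 10 fell, and 8 and 7 on TMM-scaled TPM. COL5A1, a fibril-regulating chain, was at 135, 146 and 152 CPM in flat A549 cultures, 3.01, 1.76 and 3.55 in Matrigel, 60.4, 61.4 and 53.7 in flat MDA-MB-231 cultures and 125, 125 and 132 in Matrigel. It was nearly lost in A549 3D and rose in MDA-MB-231, a difference of -6.65 ± 0.17 (adjusted p = 3.68e-13). COL4A6, a basement membrane chain, was at 90.4, 89.0 and 89.3 CPM in flat A549 cultures, 44.8, 60.0 and 72.2 in Matrigel, 1.86, 1.45 and 1.78 in flat MDA-MB-231 cultures and 16.7, 15.9 and 18.6 in Matrigel. A549 fell while MDA-MB-231 rose from a low level, a difference of -3.91 ± 0.23 (adjusted p = 2.24e-09). COL4A1, the main type IV chain, and COL7A1, the anchoring fibril collagen, fell in both lines and further in A549, with changes of -5.10 ± 0.15 in A549 and -1.92 ± 0.12 in MDA-MB-231 and of -4.63 ± 0.14 in A549 and -0.99 ± 0.13 in MDA-MB-231.

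Laminins and other glycoproteins were divided evenly, with 11 of 28 more positive in A549 and 12 in MDA-MB-231. LAMA3, the alpha chain of laminin-332 in epithelial basement membranes, was at 80.0, 82.0 and 79.4 CPM in flat A549 cultures, 8.15, 7.23 and 10.8 in Matrigel, 34.0, 33.5 and 32.99 in flat MDA-MB-231 cultures and 67.7, 74.3 and 73.8 in Matrigel. With LAMA4 described above, the alpha chains thus crossed: LAMA3 fell and LAMA4 rose in A549, and the reverse held in MDA-MB-231 (LAMA3 difference -4.21 ± 0.15, adjusted p = 1.07e-11). LAMA5 changed by -0.51 ± 0.15 in A549 and 1.17 ± 0.15 in MDA-MB-231. THBS1, thrombospondin, which activates latent TGF-beta, was at 277, 288 and 292 CPM in flat A549 cultures, 71.7, 67.0 and 80.4 in Matrigel, 617, 611 and 609.6 in flat MDA-MB-231 cultures and 1525, 1583 and 1571 in Matrigel. Its difference was -3.31 ± 0.11 (adjusted p = 6.32e-12). FN1, fibronectin, rose in both lines but by far more in A549, and the order of the lines switched, from 166 to 3800.0 CPM in A549 and from 499.8 to 772 in MDA-MB-231 (difference 3.89 ± 0.18, adjusted p = 1.91e-10). Receptors for these ligands also parted. ITGA5, the fibronectin receptor subunit, changed by -0.66 ± 0.085 in A549 and 1.202 ± 0.079 in MDA-MB-231, and SDC4, a heparan sulfate co-receptor, by -1.31 ± 0.10 in A549 and 0.77 ± 0.091 in MDA-MB-231. ITGA10, a collagen receptor subunit, changed by 1.92 ± 0.18 in A549 and -0.84 ± 0.15 in MDA-MB-231. Of 23 collagen-processing enzymes 12 had a more positive response in MDA-MB-231 and 3 in A549. LOXL2, a lysyl oxidase that crosslinks collagen, fell in A549 and rose in MDA-MB-231, from 124 to 24.6 CPM in A549 and from 377 to 850.0 in MDA-MB-231 (difference -3.45 ± 0.17, adjusted p = 4.75e-10), while LOX itself ran the other way.

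The interferon-stimulated genes were among the most one-sided groups. Interferons made by stressed or infected cells switch on this set through transcription factors such as IRF9, which bind a GAAA-type response element in promoters. Of 41 tested, 35 had a more positive response in A549 and 0 in MDA-MB-231. In A549 37 rose and 1 fell. In MDA-MB-231 15 rose and 11 fell, and on unscaled TPM 7 rose and 18 fell. The median change was 2.47 in A549 and 0.20 in MDA-MB-231, and the median difference was 2.04. Opposite changes, all up in A549, were found in 7.

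Promoter sequence is shown for a pair of these opposite genes, because the response element is the known binding site for the factors above. The windows are from RefSeq, build GRCh38.p14, 250 bases before to 50 after the transcript start, on the coding strand, with matches to GAAANNGAA on either strand in capitals. IFIT1 lies at chr10:89392373-89392672 on the plus strand and SAMD9 at chr7:93117930-93118229 on the minus strand.
IFIT1: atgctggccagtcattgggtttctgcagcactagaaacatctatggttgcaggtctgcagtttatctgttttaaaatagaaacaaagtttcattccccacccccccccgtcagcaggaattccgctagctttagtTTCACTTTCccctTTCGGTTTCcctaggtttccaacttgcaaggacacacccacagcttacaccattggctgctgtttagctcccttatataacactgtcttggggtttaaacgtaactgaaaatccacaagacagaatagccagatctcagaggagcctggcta
SAMD9: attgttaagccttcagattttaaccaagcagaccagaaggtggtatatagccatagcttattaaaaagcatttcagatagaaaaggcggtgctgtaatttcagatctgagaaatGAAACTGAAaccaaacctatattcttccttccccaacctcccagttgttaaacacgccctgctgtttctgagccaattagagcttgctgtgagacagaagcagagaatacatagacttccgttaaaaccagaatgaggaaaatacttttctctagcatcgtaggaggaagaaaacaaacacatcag
IFIT1 holds 2 matches, both on the opposite strand, and SAMD9 holds 1. Of the 30 tested interferon genes with a RefSeq promoter, 21 held a match (70.0%), against 2264 of 27305 promoters of the same length (8.29%). SAMD9L, HERC6, XAF1 and DDX58 had no match in this window, which says only that these letters are not there. A match is a description of the sequence, and among all genes with opposite changes the share with a match was near the 781 of 11855 (6.59%) of tested genes, with 60 of 859 (6.98%) for those up in A549 and 55 of 895 (6.15%) for those down.

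IFIT1, which binds viral RNA lacking a host cap, was at 4.15, 3.99 and 4.05 CPM in flat A549 cultures, 15.4, 11.3 and 55.2 in Matrigel, 90.9, 89.4 and 95.7 in flat MDA-MB-231 cultures and 48.5, 50.6 and 47.7 in Matrigel. MDA-MB-231 was far above A549 in flat culture, and in Matrigel 1 A549 library, replicate 3, exceeded the 3 MDA-MB-231 libraries. The difference was 3.84 ± 0.52 (adjusted p = 1.6e-05), and 2.66 without that library. IFIT2, a related protein, was at 3.15, 3.03 and 3.15 CPM in flat A549 cultures, 10.5, 10.2 and 20.7 in Matrigel, 106, 107 and 108 in flat MDA-MB-231 cultures and 77.8, 74.8 and 67.3 in Matrigel, a difference of 2.84 ± 0.27 (adjusted p = 4.73e-07). SAMD9, an antiviral translation inhibitor, was at 30.6, 31.7 and 29.4 CPM in flat A549 cultures, 35.1, 33.01 and 46.3 in Matrigel, 77.1, 78.8 and 86.5 in flat MDA-MB-231 cultures and 42.8, 29.8 and 28.3 in Matrigel. Its A549 rise was 0.35 ± 0.15 and turned sign on unscaled TPM, as did that of DDX58, which encodes the RNA sensor RIG-I. The MDA-MB-231 change was -1.28 ± 0.14 for SAMD9 and -0.93 ± 0.15 for DDX58. SAMD9L and HERC6 changed by 1.13 ± 0.15 in A549 and -0.90 ± 0.11 in MDA-MB-231 and by 1.49 ± 0.24 in A549 and -0.58 ± 0.22 in MDA-MB-231. XAF1, a pro-apoptotic target, was 71.1 times higher in A549 3D than in 2D (exact 95% counting interval 12.2 to 2865, from 1 and 50 counts) and fell in MDA-MB-231 (log2 change -0.90 ± 0.29). OAS1, which senses double-stranded RNA, was at 10.9, 9.57 and 10.9 CPM in flat A549 cultures, 119.7, 123 and 179.9 in Matrigel, 2.57, 2.85 and 2.34 in flat MDA-MB-231 cultures and 2.84, 4.09 and 3.29 in Matrigel, and in MDA-MB-231 the change of 0.43 ± 0.23 did not pass (difference 3.34 ± 0.28, adjusted p = 1.09e-07). TRIM22, an antiviral ubiquitin ligase, switched the order of the lines, from 1.09 to 12.4 CPM in A549 and from 4.99 to 4.30 in MDA-MB-231 (difference 3.81 ± 0.36, adjusted p = 4.5e-07), with -0.23 ± 0.23 in MDA-MB-231, which did not pass.

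**Figure D4:**
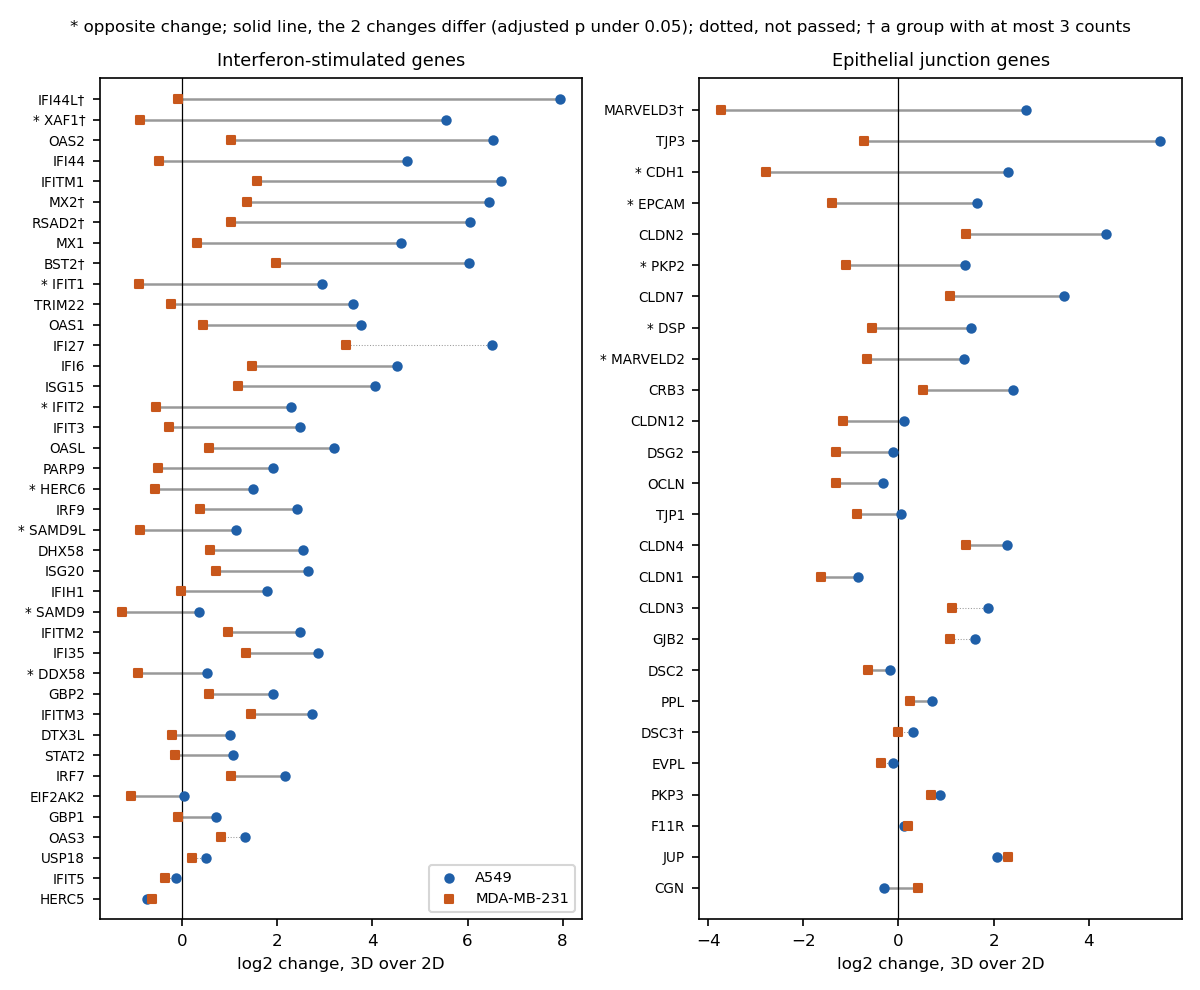
Log2 change (3D over 2D, x axis) of each tested interferon-stimulated gene and junction gene in A549 and MDA-MB-231, joined by a line that is solid where the difference between lines passed and dotted where it did not; asterisks mark opposite changes and daggers a group with at most 3 counts, and 1 member of each group is not drawn. The A549 points of the interferon group lie mostly right of 0 (37 of 41 rose) while the MDA-MB-231 points lie on both sides (15 rose and 11 fell, or 7 and 18 on unscaled TPM).

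Complement and plasma protein genes leaned the same way. Of 23 tested, 14 had a more positive response in A549 and 0 in MDA-MB-231. CD55, a membrane inhibitor of the convertases, was at 35.3, 30.2 and 32.8 CPM in flat A549 cultures, 38.2, 63.5 and 51.9 in Matrigel, 405, 401 and 416 in flat MDA-MB-231 cultures and 144, 148 and 151 in Matrigel. It rose in A549 and fell in MDA-MB-231 without overlap of the cultures, a difference of 2.09 ± 0.17 (adjusted p = 9.87e-08). CD46, another membrane inhibitor, changed by 0.42 ± 0.11 in A549 and -1.32 ± 0.11 in MDA-MB-231, and its A549 sign turned on unscaled TPM. CFB, complement factor B, rose in both lines and by far more in A549, from 1.23 to 47.9 CPM in A549 and from 40.1 to 71.2 in MDA-MB-231 (difference 4.48 ± 0.21, adjusted p = 2.55e-10). SERPINA1, the elastase inhibitor alpha-1 antitrypsin, rose in both with a difference of 5.06 ± 0.32 (adjusted p = 6.45e-09).

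Antigen presentation leaned the other way for class I. Of 15 tested class I genes, 7 had a more positive response in MDA-MB-231 and 2 in A549. HLA genes resemble one another, so their counts are uncertain. TAP1, the peptide transporter, had log2 values of -0.12 ± 0.13 in A549 and 1.23 ± 0.12 in MDA-MB-231, of which only the MDA-MB-231 rise passed. Of 13 class II genes, 12 rose in MDA-MB-231 and 2 in A549, but 6 had a group at 0 counts and 2 were measured in both lines, so that few of them can be compared. HLA-DMB, which loads class II peptides, was measured in both and rose further in A549, from 1.88 to 123 CPM in A549 and from 6.29 to 45.3 in MDA-MB-231 (difference 3.16 ± 0.22, adjusted p = 1.56e-08).

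Of 34 tested cytokine genes 12 were more positive in each line, not far from the 29.3% and 26.7% of all genes. That balance turned toward MDA-MB-231 on the TPM scales. There were 9 in A549 and 16 in MDA-MB-231 on log2(TPM + 1), 8 and 15 on log2(TPM + 0.1) and 11 and 17 after TMM scaling. IL18, an inflammasome cytokine, was at 36.9, 40.0 and 37.1 CPM in flat A549 cultures, 43.9, 51.6 and 43.9 in Matrigel, 58.5, 55.7 and 55.1 in flat MDA-MB-231 cultures and 7.11, 6.34 and 5.31 in Matrigel. The MDA-MB-231 change was -3.19 ± 0.11, the larger share of the difference of 3.47 ± 0.14 (adjusted p = 7.3e-11), while the small A549 rise turned sign on unscaled TPM. RELB, a subunit of alternative NF-kB, was at 18.7, 21.4 and 21.4 CPM in flat A549 cultures, 13.0, 12.3 and 14.9 in Matrigel, 11.7, 11.9 and 12.2 in flat MDA-MB-231 cultures and 25.9, 26.4 and 30.7 in Matrigel, a difference of -1.79 ± 0.14 (adjusted p = 7.92e-08). LIF, a cytokine of the IL6 family, had log2 values of -2.89 ± 0.13 in A549 and -0.10 ± 0.11 in MDA-MB-231, of which only the A549 fall passed.

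Amino acid supply genes responded more positively in MDA-MB-231 almost throughout. ATF4 is the transcription factor made when amino acids run short or the integrated stress response is active, and it induces transporters, biosynthetic enzymes and aminoacyl-tRNA synthetases. Of 29 tested genes of this programme, 26 had a more positive response in MDA-MB-231 and 1 in A549, and 13 had opposite changes, all down in A549. In A549 5 rose and 17 fell and in MDA-MB-231 24 rose and 2 fell, and the lean held on each scaling tried. The median change was -0.40 in A549 and 0.64 in MDA-MB-231, and the median difference was -1.10. ATF4 itself was at 241, 242 and 232 CPM in flat A549 cultures, 136, 139 and 159 in Matrigel, 174, 184 and 161 in flat MDA-MB-231 cultures and 256, 267 and 288 in Matrigel. A549 was the higher line in 2D and the lower in 3D, a difference of -1.36 ± 0.12 (adjusted p = 1.32e-07).

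The transporters showed the largest of these differences. SLC7A5, the leucine transporter LAT1, was at 1196, 1147 and 1174 CPM in flat A549 cultures, 155, 98.2 and 210.1 in Matrigel, 238, 263 and 234 in flat MDA-MB-231 cultures and 456, 448 and 458 in Matrigel. SLC3A2, its heavy chain partner, was at 732, 752 and 735 CPM in flat A549 cultures, 199, 182 and 274 in Matrigel, 112, 114 and 114 in flat MDA-MB-231 cultures and 219.9, 198 and 206 in Matrigel. The pair fell together in A549 and rose together in MDA-MB-231, with differences of -3.79 ± 0.25 (adjusted p = 7.06e-09) and -2.62 ± 0.16 (adjusted p = 4.43e-09). ASNS, asparagine synthetase, was at 49.4, 48.0 and 42.0 CPM in flat A549 cultures, 27.7, 33.6 and 32.98 in Matrigel, 28.3, 28.3 and 26.5 in flat MDA-MB-231 cultures and 81.3, 64.2 and 65.5 in Matrigel. It switched from higher in A549 to higher in MDA-MB-231 (difference -1.90 ± 0.15, adjusted p = 6.65e-08). PYCR1, which makes proline, changed by -0.80 ± 0.10 in A549 and 1.31 ± 0.10 in MDA-MB-231, TRIB3, a pseudokinase that restrains ATF4, by -0.54 ± 0.10 in A549 and 1.53 ± 0.10 in MDA-MB-231, and SHMT2, of mitochondrial serine use, by -0.50 ± 0.084 in A549 and 0.82 ± 0.082 in MDA-MB-231. The synthetases GARS and CARS, for glycine and cysteine, changed by -0.40 ± 0.077 in A549 and 0.76 ± 0.075 in MDA-MB-231 and by -0.38 ± 0.086 in A549 and 0.96 ± 0.082 in MDA-MB-231. PHGDH, the entry to serine synthesis, changed by -1.65 ± 0.12 in A549 and 0.30 ± 0.13 in MDA-MB-231, and its MDA-MB-231 sign turned on unscaled TPM.

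Folding genes of the endoplasmic reticulum were less one-sided, with 11 of 23 more positive in MDA-MB-231 and 6 in A549. HSPA5, the chaperone BiP, was at 334, 295 and 309.5 CPM in flat A549 cultures, 254, 226 and 210.4 in Matrigel, 1011, 966 and 1020.0 in flat MDA-MB-231 cultures and 1625, 1628 and 1629 in Matrigel. PDIA4, a disulfide isomerase, was at 369.7, 359 and 365 CPM in flat A549 cultures, 239.7, 249.6 and 312 in Matrigel, 225, 219 and 216 in flat MDA-MB-231 cultures and 419, 446 and 452 in Matrigel. Both fell in A549 and rose in MDA-MB-231, with differences of -1.15 ± 0.11 (adjusted p = 6.37e-07) and -1.44 ± 0.13 (adjusted p = 1.71e-07). DNAJB9, a co-chaperone in degradation, changed the other way, by 0.70 ± 0.19 in A549 and -0.49 ± 0.20 in MDA-MB-231, and XBP1, a factor of the same stress response, rose in both lines and further in A549, by 2.48 ± 0.11 in A549 and 1.03 ± 0.11 in MDA-MB-231.

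Hypoxia-induced genes did not move as a block. Of 26 tested, 11 had a more positive response in MDA-MB-231 and 8 in A549, and 7 had opposite changes, 5 of them down in A549. In A549 16 rose and 7 fell, against 8 and 10 on unscaled TPM, and in MDA-MB-231 18 rose and 3 fell. The group's median difference of 0.10 was negative on unscaled TPM, with the length trend removed, and without A549 3D replicates 1 and 2. VEGFA, the angiogenic factor, was at 28.5, 27.6 and 26.1 CPM in flat A549 cultures, 13.7, 14.4 and 15.5 in Matrigel, 88.6, 89.7 and 84.0 in flat MDA-MB-231 cultures and 320.3, 342 and 339 in Matrigel. It rose in MDA-MB-231 and fell in A549, a difference of -2.83 ± 0.11 (adjusted p = 5.02e-11). ANGPTL4, a lipase inhibitor, was at 24.1, 23.5 and 27.6 CPM in flat A549 cultures, 13.5, 22.9 and 14.2 in Matrigel, 10.2, 11.4 and 9.12 in flat MDA-MB-231 cultures and 62.7, 53 and 59.2 in Matrigel, and ADM, the vasodilator adrenomedullin, changed by -1.14 ± 0.16 in A549 and 0.61 ± 0.14 in MDA-MB-231. ANGPTL4 thereby switched the order of the lines (difference -3.15 ± 0.21, adjusted p = 9.59e-09). LOX, a collagen crosslinker, was at 0.332, 0.532 and 0.393 CPM in flat A549 cultures, 1.63, 2.34 and 0.947 in Matrigel, 93.2, 82.5 and 94.8 in flat MDA-MB-231 cultures and 46.6, 52.0 and 49.9 in Matrigel. A549 rose from a low level and MDA-MB-231 fell, a difference of 2.49 ± 0.37 (adjusted p = 3.95e-05). INSIG2, which restrains sterol synthesis, ran with LOX, by 0.81 ± 0.17 in A549 and -0.45 ± 0.15 in MDA-MB-231. EGLN3, the oxygen sensor PHD3, rose in both lines, from 5.27 to 101 CPM in A549 and from 4.17 to 16.3 in MDA-MB-231.

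ANGPTL4 and LOX, which went opposite ways, both carry the core hypoxia element ACGTG in their RefSeq promoters (GRCh38.p14, 300 bases, coding strand, matches on either strand in capitals). ANGPTL4 lies at chr19:8363905-8364204 on the plus strand and LOX at chr5:122078210-122078509 on the minus strand.
ANGPTL4: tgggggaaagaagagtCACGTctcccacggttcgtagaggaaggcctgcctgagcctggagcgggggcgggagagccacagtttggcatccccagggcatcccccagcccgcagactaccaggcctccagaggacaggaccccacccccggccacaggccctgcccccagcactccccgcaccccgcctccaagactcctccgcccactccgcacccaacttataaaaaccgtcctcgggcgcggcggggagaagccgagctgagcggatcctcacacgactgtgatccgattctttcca
LOX: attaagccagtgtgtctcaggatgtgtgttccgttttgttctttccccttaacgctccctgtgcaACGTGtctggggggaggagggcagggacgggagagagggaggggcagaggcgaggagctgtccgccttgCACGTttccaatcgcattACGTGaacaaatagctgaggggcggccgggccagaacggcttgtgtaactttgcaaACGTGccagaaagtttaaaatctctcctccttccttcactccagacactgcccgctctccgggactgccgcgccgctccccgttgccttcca
The window of ANGPTL4 holds 1 match and that of LOX 4. Of 19 tested hypoxia genes with a promoter 12 held a match (63.2%), against 5900 of 27305 promoters (21.6%) and 3109 of 11855 tested genes (26.2%). Among all genes with opposite changes a match was held by 204 of 859 (23.7%) of those up in A549 and 239 of 895 (26.7%) of those down. INSIG2 held 1 match and ADM none in this window, so the letters alone did not separate the orientations among these 4 genes.

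Of 22 tested glycolytic genes 18 rose and 2 fell in A549 and 20 rose in MDA-MB-231, while on unscaled TPM 11 rose and 6 fell in A549 and 6 changes were opposite. A more positive response was found in MDA-MB-231 for 12 and in A549 for 5. PFKP, given above, and PFKFB3 were the 2 with opposite changes in the reported fit. PFKFB3, which makes the activator of phosphofructokinase, was at 411, 414 and 432 CPM in flat A549 cultures, 189.8, 157 and 225 in Matrigel, 48.0, 46.0 and 43.2 in flat MDA-MB-231 cultures and 111, 113 and 114 in Matrigel. The fall in A549 and the rise in MDA-MB-231 gave a difference of -2.43 ± 0.14 (adjusted p = 2.98e-09). HK1, hexokinase 1, rose in both and further in A549, from 76.1 to 327 CPM in A549 and from 203 to 424 in MDA-MB-231 (difference 1.04 ± 0.11, adjusted p = 7.68e-07).

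More sterol genes fell than rose in each line, 14 against 6 of 24 in A549 and 12 against 7 in MDA-MB-231, and 7 had opposite changes. LSS, lanosterol synthase, was at 58.0, 53 and 58.3 CPM in flat A549 cultures, 39.9, 25.4 and 40.5 in Matrigel, 45.9, 50.6 and 43.9 in flat MDA-MB-231 cultures and 85.3, 81.6 and 87.4 in Matrigel. NSDHL, a sterol dehydrogenase of the same pathway, was at 43.9, 43.1 and 46.0 CPM in flat A549 cultures, 30.8, 29.5 and 36.5 in Matrigel, 25.4, 27.3 and 23.7 in flat MDA-MB-231 cultures and 41.8, 48.1 and 44.4 in Matrigel. Both fell in A549 and rose in MDA-MB-231 without overlap of the cultures, and A549 passed from above MDA-MB-231 in 2D to below it in 3D, with differences of -1.49 ± 0.17 (adjusted p = 2.89e-06) and -1.25 ± 0.13 (adjusted p = 1.45e-06). FDFT1, squalene synthase, ran the other way, by 0.33 ± 0.078 in A549 and -0.32 ± 0.078 in MDA-MB-231, but its A549 sign turned on unscaled TPM.

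Of 30 tested NRF2 targets 24 rose and 5 fell in A549 and 17 rose and 5 fell in MDA-MB-231, against 15 and 10 in A549 and 12 and 9 in MDA-MB-231 on unscaled TPM. Their differences divided 9 to A549 and 7 to MDA-MB-231, near the 29.3% and 26.7% of all genes. The balance turned to 9 and 12 on unscaled TPM and to 9 and 11 without A549 3D replicate 3. HMOX1, given above, was among the 5 that fell in A549. TXNRD1, thioredoxin reductase, changed by -0.30 ± 0.086 in A549 and 0.49 ± 0.086 in MDA-MB-231, and TRIM16, an NRF2-linked ubiquitin ligase, by -0.23 ± 0.075 in A549 and 1.33 ± 0.083 in MDA-MB-231. ME1, malic enzyme, which makes NADPH, had the other orientation and was at 141, 135 and 125 CPM in flat A549 cultures, 366, 322 and 296 in Matrigel, 18.7, 18.0 and 19.2 in flat MDA-MB-231 cultures and 16.8, 14.0 and 11.7 in Matrigel, a difference of 1.71 ± 0.16 (adjusted p = 3.2e-07). AKR1C1 went from 721 to 4401 CPM in A549 and from 4.08 to 2.54 in MDA-MB-231, but it shares reads with near-identical relatives and is uncertain.

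Of 16 tested metallothionein and iron genes 7 had a more positive response in MDA-MB-231 and 5 in A549, against 9 and 2 on unscaled TPM. Opposite changes were found in 6, of which 4, HMOX1 among them, were down in A549, and in 2 on unscaled TPM. SLC40A1, ferroportin, the iron exporter, was at 29.2, 30.7 and 28.4 CPM in flat A549 cultures, 210.4, 219 and 194 in Matrigel, 4.73, 4.43 and 4.47 in flat MDA-MB-231 cultures and 3.11, 3.83 and 3.67 in Matrigel. It rose in A549 and dipped in MDA-MB-231 (difference 3.16 ± 0.14, adjusted p = 1.84e-10). MT2A, a metallothionein with close copies and therefore uncertain, changed by -1.05 ± 0.15 in A549 and 1.01 ± 0.14 in MDA-MB-231, and STEAP3, a ferrireductase, by -0.72 ± 0.11 in A549 and 0.66 ± 0.10 in MDA-MB-231. BMP6, a ligand that induces the iron hormone hepcidin, had the orientation of SLC40A1, with changes of 0.84 ± 0.16 in A549 and -1.40 ± 0.21 in MDA-MB-231.

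Proliferation genes fell in A549 almost throughout and less evenly in MDA-MB-231. Of 38 tested replication genes, 28 had a more positive response in MDA-MB-231 and 1 in A549. In A549 37 fell and 0 rose, and in MDA-MB-231 19 fell and 9 rose. The 9 rises were all opposite changes; on unscaled TPM 1 gene rose, 26 fell and 1 change was opposite. TK1, thymidine kinase of S phase, was at 162, 156 and 164 CPM in flat A549 cultures, 115, 74.6 and 113 in Matrigel, 69.9, 70.2 and 58.8 in flat MDA-MB-231 cultures and 151, 152 and 157 in Matrigel. MCM2, a subunit of the replicative helicase, was at 157, 159 and 154 CPM in flat A549 cultures, 97.4, 69.7 and 118 in Matrigel, 87.7, 89.8 and 87.0 in flat MDA-MB-231 cultures and 141, 132 and 138 in Matrigel. Both fell in A549 and rose in MDA-MB-231, with differences of -1.86 ± 0.17 (adjusted p = 3.5e-07) and -1.34 ± 0.18 (adjusted p = 1.18e-05). E2F1, which switches on this set, changed by -0.70 ± 0.094 in A549 and 0.67 ± 0.087 in MDA-MB-231, and GINS4, of the same helicase, by -1.87 ± 0.10 in A549 and 0.48 ± 0.083 in MDA-MB-231. Of 36 mitosis genes, 24 had a more positive response in MDA-MB-231 and 1 in A549. In A549 35 fell and in MDA-MB-231 24 fell and 5 rose, and no opposite call was left on unscaled TPM against 4 here. CDC20, an activator of the anaphase-promoting complex, was at 139.8, 135 and 135 CPM in flat A549 cultures, 46.4, 30.7 and 45.4 in Matrigel, 250.5, 270.5 and 242 in flat MDA-MB-231 cultures and 340.5, 379 and 374 in Matrigel, a difference of -2.23 ± 0.16 (adjusted p = 1.56e-08). BIRC5, survivin of the chromosomal passenger complex, changed by -1.31 ± 0.092 in A549 and 0.44 ± 0.089 in MDA-MB-231.

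Ribosome production followed. Of 33 tested genes of ribosome biogenesis and MYC targets, 26 had a more positive response in MDA-MB-231 and 1 in A549, with 10 opposite changes, all down in A549. In A549 2 rose and 26 fell. In MDA-MB-231 14 rose and 12 fell, and 7 and 19 on unscaled TPM. MYC, the growth factor-responsive regulator of this set, was at 136, 134 and 129 CPM in flat A549 cultures, 58.9, 50.2 and 65.9 in Matrigel, 134, 150.4 and 127 in flat MDA-MB-231 cultures and 188, 196 and 205 in Matrigel. The lines overlapped in 2D and stood apart in 3D, a difference of -1.69 ± 0.13 (adjusted p = 5.47e-08). RRP12, of ribosomal RNA processing, changed by -0.98 ± 0.14 in A549 and 1.08 ± 0.14 in MDA-MB-231, and ODC1, of polyamine synthesis and a MYC target, by -0.43 ± 0.091 in A549 and 1.13 ± 0.090 in MDA-MB-231. Of 47 cytosolic ribosomal protein genes, 40 had a more positive response in MDA-MB-231 and 0 in A549. In MDA-MB-231 45 rose and 0 fell. In A549 20 rose and 8 fell, a direction that turned on unscaled TPM, where 0 rose and 42 fell, and with the length trend removed, where 8 rose and 21 fell. RPS2 was at 1554, 1454 and 1601 CPM in flat A549 cultures, 1195, 1118 and 1130.0 in Matrigel, 698, 754 and 716 in flat MDA-MB-231 cultures and 1609, 1661 and 1670.0 in Matrigel and RPS16 changed by -0.64 ± 0.13 in A549 and 1.16 ± 0.13 in MDA-MB-231. Ribosomal protein genes have many processed copies, so their counts are uncertain.

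**Figure D5:**
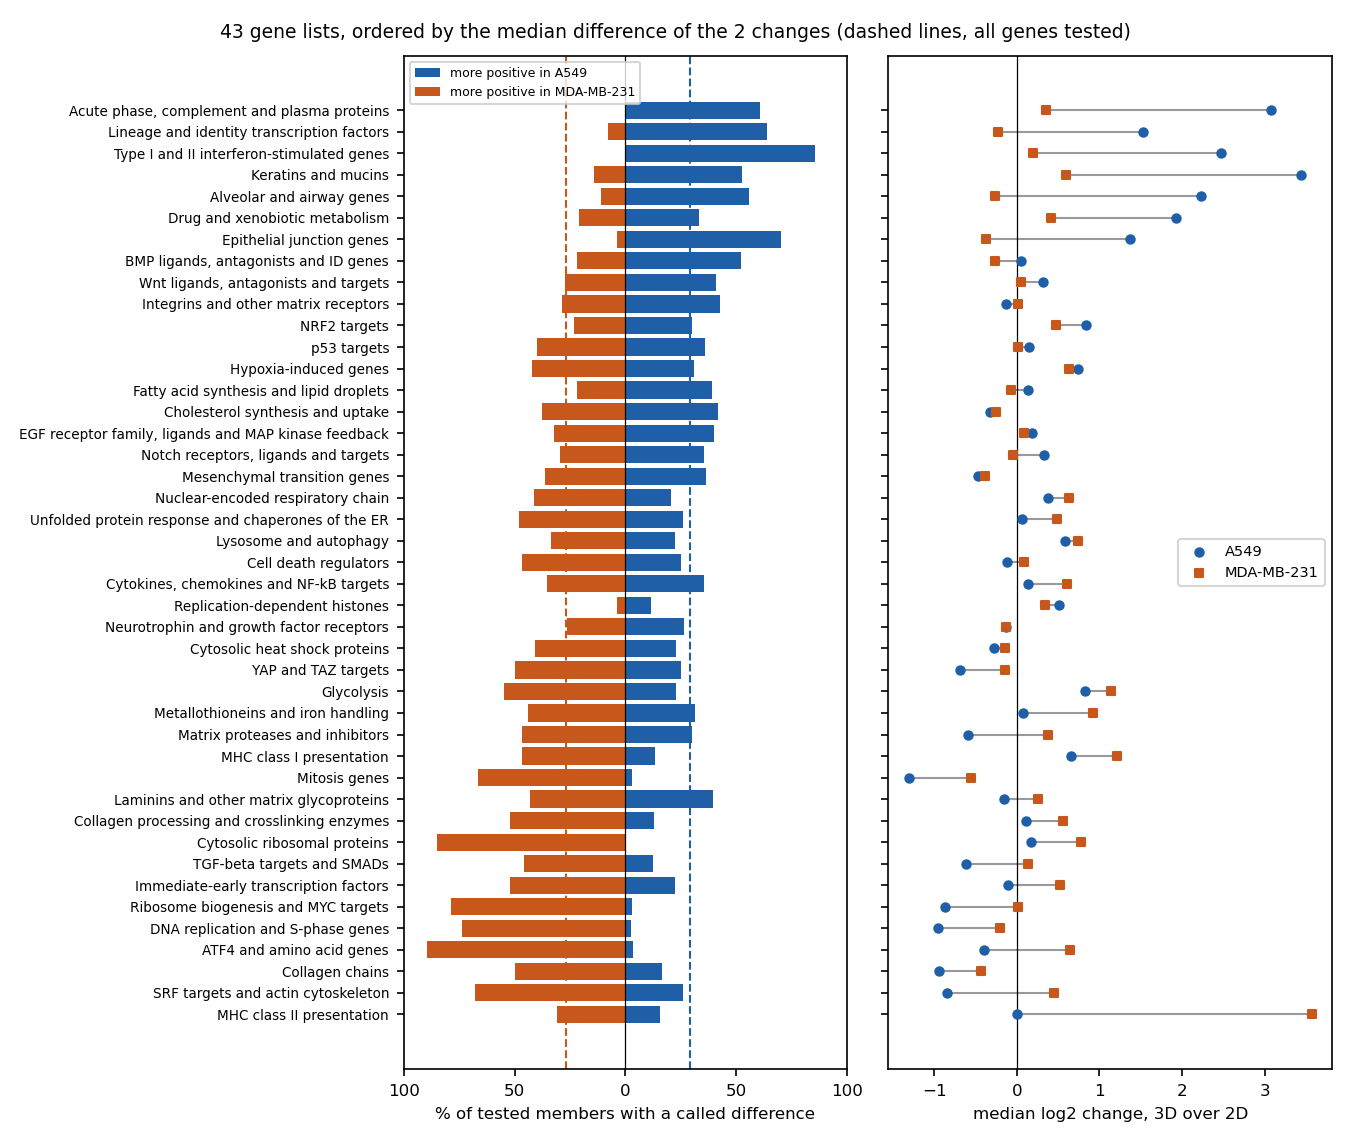
For each of 43 gene groups, the left panel gives the percentage of tested members whose response was called more positive in A549 or in MDA-MB-231, with dashed lines at the 29.3% and 26.7% of all genes, and the right panel gives the median log2 change in each line. Interferon, junction and lineage factor groups stand out toward A549 and the amino acid, ribosome, replication and actin groups toward MDA-MB-231, while on unscaled TPM the median change of all genes is -0.38 in A549 and -0.25 in MDA-MB-231, which shifts the group medians down.

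Immediate-early and AP-1 factors are induced within minutes by growth factors and stress. In A549 8 rose and 10 fell, and in MDA-MB-231 18 rose and 2 fell. Of 27 tested, 14 had a more positive response in MDA-MB-231 and 6 in A549, and 10 had opposite changes, 9 of them down in A549. JUN, the AP-1 core subunit, was at 44.8, 45.7 and 45.8 CPM in flat A549 cultures, 4.51, 2.73 and 4.14 in Matrigel, 95.8, 91.8 and 85.7 in flat MDA-MB-231 cultures and 102, 106 and 115 in Matrigel. The A549 libraries fell far while MDA-MB-231 rose by 0.24 ± 0.083, which turned sign on unscaled TPM (difference -3.75 ± 0.15, adjusted p = 5.22e-11). JUNB was at 41.3, 41.4 and 49.2 CPM in flat A549 cultures, 25.4, 21.5 and 26.4 in Matrigel, 17.7, 24.3 and 19.1 in flat MDA-MB-231 cultures and 39.4, 41.5 and 41.2 in Matrigel and switched the order of the lines (difference -1.82 ± 0.17, adjusted p = 2.96e-07). FOSL2 changed by -0.64 ± 0.12 in A549 and 1.01 ± 0.11 in MDA-MB-231 and IER3, a survival gene, by -0.93 ± 0.10 in A549 and 0.63 ± 0.090 in MDA-MB-231.

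Of 25 tested genes of the EGF receptor family, its ligands and MAP kinase feedback, 10 had a more positive response in A549 and 8 in MDA-MB-231, and on unscaled TPM 8 and 10. Ligands and feedback inhibitors were each found in both orientations. Of the ligands, AREG, amphiregulin, was at 86.8, 86.5 and 82.7 CPM in flat A549 cultures, 9.28, 11.3 and 12.6 in Matrigel, 28.6, 27.5 and 30.9 in flat MDA-MB-231 cultures and 45.4, 39.5 and 44.1 in Matrigel, a difference of -3.47 ± 0.14 (adjusted p = 7.08e-11) with the order of the lines switched. EREG, epiregulin, fell in both lines and further in A549, with changes of -3.43 ± 0.11 in A549 and -1.01 ± 0.10 in MDA-MB-231. NRG4, a ligand of ERBB4, rose in A549 by 1.25 ± 0.25 and in MDA-MB-231 was 9.88 times lower in 3D (exact 95% counting interval 1.502 to 418, from 14 counts and 1). Of the receptors, ERBB3 was at 2.71, 2.50 and 2.53 CPM in flat A549 cultures, 33.2, 33.2 and 35.0 in Matrigel, 6.58, 5.74 and 5.77 in flat MDA-MB-231 cultures and 4.00, 4.35 and 4.93 in Matrigel. It rose in A549 and dipped in MDA-MB-231 (difference 4.15 ± 0.16, adjusted p = 5.02e-11). Of the fibroblast growth factor receptors, FGFR4 changed by 1.42 ± 0.10 in A549 and -0.998 ± 0.27 in MDA-MB-231, and FGFR1 had log2 values of -0.13 ± 0.088 in A549 and 0.62 ± 0.084 in MDA-MB-231, of which only the MDA-MB-231 rise passed. Of the feedback inhibitors, SPRY1 changed by 2.02 ± 0.17 in A549 and -0.24 ± 0.091 in MDA-MB-231. SPRY2 changed by -1.32 ± 0.12 in A549 and 0.40 ± 0.088 in MDA-MB-231, with an MDA-MB-231 sign that turned on unscaled TPM, and DUSP1, a MAP kinase phosphatase, fell in both lines, with changes of -3.17 ± 0.082 in A549 and -0.94 ± 0.076 in MDA-MB-231.

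BMP signalling genes were tilted to A549, with 12 of 23 more positive there and 5 in MDA-MB-231. ID genes are direct BMP targets that block differentiation factors. ID4 was at 0.111, 0.106 and 0.112 CPM in flat A549 cultures, 16.2, 24.8 and 12.6 in Matrigel, 3.08, 2.80 and 4.04 in flat MDA-MB-231 cultures and 0.178, 0.944 and 1.31 in Matrigel. Nearly absent from flat A549 cultures, it exceeded MDA-MB-231 in Matrigel, a difference of 9.07 ± 0.62 (adjusted p = 1.21e-08). ID1 rose in both lines and further in A549, from 44.0 to 392 CPM in A549 and from 28.0 to 48.6 in MDA-MB-231 (difference 2.37 ± 0.13, adjusted p = 1.12e-09). The type I receptor BMPR1B changed by 0.74 ± 0.090 in A549 and -2.85 ± 0.18 in MDA-MB-231 and the receptor-activated SMAD9 by 2.40 ± 0.39 in A549 and -2.15 ± 0.30 in MDA-MB-231. FSTL3, an antagonist of activin and BMP, had the other orientation, by -1.90 ± 0.15 in A549 and 0.69 ± 0.15 in MDA-MB-231.

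Of 22 Wnt genes 9 had a more positive response in A549 and 6 in MDA-MB-231, and 5 had opposite changes. Over all tested genes the shares were 29.3% and 26.7%, with 6.97% opposite and up in A549 and 7.21% opposite and down. WNT7B, a ligand, was at 26.9, 24.8 and 28.3 CPM in flat A549 cultures, 19.4, 7.03 and 10.7 in Matrigel, 11.3, 13.3 and 10.6 in flat MDA-MB-231 cultures and 57.5, 59.6 and 58.5 in Matrigel, and the order of the lines switched (difference -3.42 ± 0.27, adjusted p = 5.96e-08). FZD2, a Wnt receptor, was at 97.4, 97.5 and 106 CPM in flat A549 cultures, 15.5, 12.3 and 15.5 in Matrigel, 27.9, 33.1 and 26.4 in flat MDA-MB-231 cultures and 46.8, 47.0 and 50.9 in Matrigel, again with a switch (difference -3.49 ± 0.14, adjusted p = 7.85e-11). DKK1, a secreted antagonist, changed the other way, by 0.92 ± 0.11 in A549 and -0.68 ± 0.11 in MDA-MB-231. AXIN2, a feedback target of beta-catenin, was at 1.88, 1.91 and 1.46 CPM in flat A549 cultures, 20.7, 23.2 and 26.1 in Matrigel, 6.08, 5.15 and 4.56 in flat MDA-MB-231 cultures and 5.15, 5.82 and 5.81 in Matrigel. It rose in A549, and the MDA-MB-231 change of 0.10 ± 0.14 did not pass (difference 3.65 ± 0.21, adjusted p = 2.54e-09). Of 17 Notch genes, 6 were more positive in A549 and 5 in MDA-MB-231, near the 29.3% and 26.7% of all genes. On unscaled TPM the counts were 4 and 7. NOTCH1 changed by -0.39 ± 0.14 in A549 and 1.03 ± 0.13 in MDA-MB-231 and its target HES1 by 1.40 ± 0.11 in A549 and -0.79 ± 0.12 in MDA-MB-231.

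Of 25 tested targets of p53, 9 had a more positive response in A549 and 10 in MDA-MB-231, and 6 had opposite changes, 5 of them up in A549. In A549 12 rose and 5 fell, against 5 and 15 on unscaled TPM. ZMAT3, an RNA-binding target, was at 23.7, 24.9 and 23.4 CPM in flat A549 cultures, 64.3, 60.2 and 43.4 in Matrigel, 17.6, 17.8 and 21.2 in flat MDA-MB-231 cultures and 15.6, 13.2 and 12.7 in Matrigel, a difference of 1.66 ± 0.19 (adjusted p = 3.54e-06). TP53I3, a quinone reductase, ran the other way, by -0.73 ± 0.10 in A549 and 0.94 ± 0.11 in MDA-MB-231. A549 carries wild-type p53 and MDA-MB-231 a mutant form, as background. FAS, SESN1 and RRM2B also fell in MDA-MB-231, with changes of -0.82 ± 0.12, -0.77 ± 0.11 and -0.76 ± 0.11, and their small A549 rises turned sign on unscaled TPM.

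Some genes moved strongly in 1 line and little in the other. These were chosen for an absolute change of at least 2 in 1 line, without overlap of its cultures, and under 0.5 in the other. The contrast and the lack of overlap are therefore a description. Genes that met the rule numbered 71 for rises in A549, 46 for falls in A549, 7 for rises in MDA-MB-231 and 24 for falls in MDA-MB-231. Among rises in A549, CST1, a secreted cysteine protease inhibitor, was at 0.221, 0.106 and 0.225 CPM in flat A549 cultures, 88.2, 82.6 and 90.9 in Matrigel, 399.6, 414 and 345 in flat MDA-MB-231 cultures and 344, 393 and 379.5 in Matrigel. A549 libraries passed from near 0 to levels still under those of MDA-MB-231, and the MDA-MB-231 value of -0.054 ± 0.085 did not pass and changed sign without MDA-MB-231 3D replicate 1. CST4, a close copy with uncertain counts, had no count in flat A549 cultures, and its level in Matrigel was at least 24.7-fold higher. SLPI, an inhibitor of neutrophil elastase in mucus, was at 1.16, 0.532 and 0.674 CPM in flat A549 cultures, 74.3, 69.5 and 78.1 in Matrigel, 0.928, 1.67 and 1.17 in flat MDA-MB-231 cultures and 1.69, 1.42 and 1.97 in Matrigel. PDK4, the kinase that shuts glucose carbon out of mitochondria, was at 3.48, 3.40 and 2.13 CPM in flat A549 cultures, 134, 180.5 and 151 in Matrigel, 8.65, 6.64 and 8.77 in flat MDA-MB-231 cultures and 8.35, 6.03 and 7.23 in Matrigel. For these the difference was 6.12 ± 0.35 (adjusted p = 1.93e-09) and 5.86 ± 0.25 (adjusted p = 9e-11). SLPI and PDK4 thus ended higher in A549 than in MDA-MB-231, having begun lower.

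Among falls in A549, IL11, a cytokine of the IL6 family induced by TGF-beta, was at 44.5, 46.6 and 46.5 CPM in flat A549 cultures, 0.251, 0.195 and 0.434 in Matrigel, 86.6, 85.8 and 83.4 in flat MDA-MB-231 cultures and 99.5, 103 and 94.8 in Matrigel. The MDA-MB-231 change was small (0.21 ± 0.071, of the other sign on unscaled TPM), and the difference was -7.17 ± 0.18 (adjusted p = 3.68e-13). That difference rests on 14 counts over the A549 3D libraries. CCBE1, a matrix protein needed for VEGFC processing, was 481 times lower in A549 3D (exact 95% counting interval 133 to 3977, from 1369 and 2 counts), and its MDA-MB-231 change was -0.45 ± 0.10. DOCK2, an activator of RAC that is best known in leukocytes, was at 10.7, 13.2 and 11.7 CPM in flat A549 cultures, 0.125, 0 and 0.276 in Matrigel, 21.1, 19.6 and 19.9 in flat MDA-MB-231 cultures and 27.5, 25.2 and 27.9 in Matrigel, a difference of -6.21 ± 0.28 (adjusted p = 2.19e-10). IL31RA, a cytokine receptor chain, went from 6.70 to 0.263 CPM in A549 and from 15.4 to 18.3 in MDA-MB-231, and its MDA-MB-231 change did not pass.

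Among rises in MDA-MB-231, OTUB2, a deubiquitinase, was at 7.08, 5.42 and 7.92 CPM in flat A549 cultures, 6.14, 3.91 and 4.97 in Matrigel, 37.4, 34.7 and 35.2 in flat MDA-MB-231 cultures and 159, 174 and 162 in Matrigel. CCDC85B was at 9.95, 9.46 and 10.6 CPM in flat A549 cultures, 8.90, 8.01 and 7.34 in Matrigel, 13.1, 11.1 and 13.5 in flat MDA-MB-231 cultures and 67.1, 73.6 and 67.1 in Matrigel. Both rose in MDA-MB-231 without overlap, with A549 changes of -0.42 ± 0.16 and -0.34 ± 0.12. EHD3, of endosome recycling, and the non-coding LINC01234 rose by 2.26 ± 0.14 and 3.17 ± 0.38 in MDA-MB-231. Among falls there, MALAT1, an abundant nuclear RNA, was at 557, 562 and 591 CPM in flat A549 cultures, 1061, 902 and 389 in Matrigel, 107, 83.2 and 94.97 in flat MDA-MB-231 cultures and 2.04, 7.65 and 11.8 in Matrigel. The A549 change did not pass and turned sign on unscaled TPM and without A549 3D replicates 1 and 2, while MDA-MB-231 fell without overlap (-3.65 ± 0.39). SCARA3, a scavenger receptor, was at 41.4, 39.8 and 39.3 CPM in flat A549 cultures, 37.5, 27.1 and 38.2 in Matrigel, 21.7, 23.4 and 22.5 in flat MDA-MB-231 cultures and 1.87, 2.10 and 1.15 in Matrigel, a difference of 3.53 ± 0.22 (adjusted p = 3.78e-09). RAB3B, a GTPase of secretory vesicles, was 22.1 times lower in MDA-MB-231 3D (interval 7.33 to 109, from 94 and 3 counts). COCH, a secreted matrix protein, had log2 values of -0.15 ± 0.10 in A549 and -3.63 ± 0.46 in MDA-MB-231, of which only the MDA-MB-231 fall passed.

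Where both lines moved the same way, the size could differ by orders of magnitude. TXNIP, an arrestin that limits glucose uptake and follows intracellular glucose, was at 0.111, 0.106 and 0 CPM in flat A549 cultures, 40.5, 54.1 and 42.8 in Matrigel, 242, 267 and 254 in flat MDA-MB-231 cultures and 388, 382 and 374 in Matrigel. It was nearly silent in flat A549 cultures, with 4 counts over these libraries. The rise of TXNIP in A549 exceeded that in MDA-MB-231 by 8.55 ± 0.29 (adjusted p = 1.03e-11). With so few counts, the size of this rise is less certain than the SE shows. CREB3L1, a secretory pathway factor cut from the endoplasmic reticulum membrane, changed by 6.91 ± 0.54 in A549 and 1.04 ± 0.18 in MDA-MB-231. It too had 4 counts over the flat A549 libraries. CDH4, R-cadherin, fell in both lines and was nearly lost in A549 3D, at 46.4, 51.3 and 52.0 CPM in flat A549 cultures, 0.376, 0 and 0.237 in Matrigel, 63.8, 69.7 and 57.6 in flat MDA-MB-231 cultures and 29.6, 33.9 and 29.0 in Matrigel (difference -6.65 ± 0.28, adjusted p = 8.32e-11). LOXL4, another lysyl oxidase, rose in both and further in MDA-MB-231, from 6.5 to 9.90 CPM in A549 and from 44.8 to 226 in MDA-MB-231. PLCB4, a phospholipase of G protein signalling, fell further in MDA-MB-231, with changes of -0.48 ± 0.13 in A549 and -3.88 ± 0.25 in MDA-MB-231. HIST1H1E and GOLGA8A met the same rule, but both have close copies and are uncertain.

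In many genes the line with the higher level in flat culture had the lower level in Matrigel. This switch passed in both cultures for 637 genes that were higher in A549 in 2D (4.16%) and for 620 that were higher in MDA-MB-231 in 2D (4.05%), and 1208 of them were measured in both lines. The leading genes had to show no overlap of the lines in either culture, so that lack of overlap describes the selection. Ranked by the smaller of the ratios between the lines, the first group was led by PMEPA1, FZD2, AREG and SLC7A5, given above. The second was led by LINC02582, TNFSF15, FRMD3 and SLC46A3. TNFSF15, a cytokine of the TNF family, was at 8.73, 11.2 and 13.4 CPM in flat A549 cultures, 146, 180.5 and 152 in Matrigel, 83.0, 82.8 and 85.6 in flat MDA-MB-231 cultures and 26.8, 28.3 and 28.8 in Matrigel. Every A549 library lay under every MDA-MB-231 library in 2D and above them in 3D, and the response differed by 5.42 ± 0.17 (adjusted p = 4.72e-12). SLC46A3, a lysosomal transporter, was at 6.30, 5.63 and 6.18 CPM in flat A549 cultures, 15.5, 22.3 and 20.6 in Matrigel, 19.9, 19.7 and 20.9 in flat MDA-MB-231 cultures and 6.04, 4.46 and 3.78 in Matrigel, a difference of 3.81 ± 0.21 (adjusted p = 1.23e-09).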

How the data were processed

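Total RNA of 12 cell line libraries was sequenced, 3 per line and culture. The deposited tables hold, per library, RSEM expected counts and TPM values per gene symbol. The submitters' processing notes name RSEM and hg19; for the RSEM version, aligner, gene models and strandedness of counting, the sources used here give nothing. Symbols carry no coordinates in these tables.

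Expected counts were rounded and fitted in R 4.3.3 with edgeR 4.0.16 (filterByExpr, TMM factors of 0.809 to 1.129, quasi-likelihood test, a mean for each of the 4 groups), and p-values were adjusted by Benjamini-Hochberg over all 15304 genes with a threshold of 0.05. The difference between lines is the interaction contrast of this fit. The procedure was run on simulated counts in which all 4 groups shared 1 mean and 1 spread per gene, apart from a small set of seeded genes. That setting does not cover the larger spread of A549 3D or differences at most genes. The reported fit gives each gene 1 spread for all 4 groups, so its p-values and SEs do not carry the larger spread of A549 3D. Alternatives used DESeq2 1.42.0, limma 3.58.1 on the deposited TPM values as log2(TPM + 1) or log2(TPM + 0.1), other scalings and filters, and libraries left out. Another was limma voom with a weight per group, 0.342 for A549 3D and 1.31 to 1.69 for the others. It gave 2095 opposite changes and kept 85.4% of the reported opposite calls. Where all libraries of a group were at 0, 3 counts in total stood in for it, and groups of 1 to 3 counts are given as ratios with exact 95% intervals, which cover counting error only.

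Named genes were taken by rule. Opposite genes needed a mean log2 CPM of 3 or more and cultures without overlap in both lines, and the 8 per orientation with the largest smaller change are given. Genes of 1 line (4 per line and direction) were ranked by the absolute difference between the lines. So were genes of unequal size (2 per line and direction). Order switches (4 per orientation) were ranked by the smaller of the absolute log2 ratios between the lines. All had the same floor on mean log2 CPM. From each of 43 gene lists, members were taken from the 4 with the smallest p for the difference and from the opposite changes. Of 1200 listed genes 1199 were found and 1117 tested. Some members of the lists are not reported here. The comparison and the lists were chosen with earlier results of these data known. Promoters are from RefSeq (GRCh38.p14), with 11948 tested genes matched by symbol.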

Additional observations from a re-analysis of the deposited data

Results flagged for a closer look

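The difference in 3D response between the lines passed the interaction test for each gene below, all chosen by the ranking rules given with the processing, so the sizes describe that ranking. Values are log2 differences, A549 minus MDA-MB-231, with 3 libraries per group.

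Among genes that rose in A549 and fell in MDA-MB-231, the values were COBL (5.95), LAMA4 (5.49), LINC02582 (9.88), CDH1 (5.09), FRMD3 (5.56), PLSCR4 (4.37), FOXA1 (7.34) and LLGL2 (4.27). Among genes that fell in A549 and rose in MDA-MB-231, they were CRISPLD2 (-4.40), HMOX1 (-4.04), FAM167A (-4.31), FLNA (-3.09), FSCN1 (-3.01), ELFN2 (-3.12), TMEM132A (-2.92) and PFKP (-2.86).

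For genes that moved mainly in A549, the values were CST1 (8.90), CST4 (7.63), SLPI (6.12) and PDK4 (5.86) for rises and CCBE1 (-8.28), IL11 (-7.17), DOCK2 (-6.21) and IL31RA (-5.59) for falls. For genes that moved mainly in MDA-MB-231, they were LINC01234 (-3.49), CCDC85B (-2.81), OTUB2 (-2.62) and EHD3 (-2.60) for rises and RAB3B (4.57), MALAT1 (4.10), SCARA3 (3.53) and COCH (3.48) for falls. The fitted values of CST4, CCBE1, FOXA1 and RAB3B rest on a group with at most 3 counts, depend on the prior count and are no bound.

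For genes that moved the same way by unequal amounts, the values were TXNIP (8.55), CREB3L1 (5.87), HIST1H1E (-2.15), LOXL4 (-1.65), CDH4 (-6.65), PLCB4 (3.40) and GOLGA8A (2.95). For genes in which the order of the lines switched, they were PMEPA1 (-4.78), FZD2 (-3.49), AREG (-3.48), SLC7A5 (-3.79), TNFSF15 (5.42) and SLC46A3 (3.81), together with LINC02582 and FRMD3.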

How the results depend on the processing

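Over all settings run, genes with a called difference between lines numbered 2145 to 9578. The lowest value came from a test against a log2 difference of 1, which asks for a larger difference: 2145 genes, of which called differences more positive in A549 numbered 1362 and called differences more positive in MDA-MB-231 783, with 71 and 23 opposite changes. That test put 63.5% of calls on the A549 side, against 52.3% in the reported fit. On unscaled TPM 656 genes rose in A549 and fell in MDA-MB-231 with a pseudocount of 1, and 680 with 0.1, against 1067. GOLGA8A reversed, to -0.495 on log2(TPM + 1) and -0.482 after TMM scaling, and so did PECAM1, to -0.384 and -0.434; the cause was not tested. RAB3B lost its call on log2(TPM + 1) (0.029, limma adjusted p = 0.870). Of 9194 differences of named genes under the alternatives, 9084 kept a call with its direction or stayed without a call. Another 105 lost the call, 1 gained it and 4 reversed. A change of sign was not counted where neither fit called the gene, as for CD14 and ITGAM. These counts cover the difference between lines and not the change within a line.

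The labels do not state whether the replicate numbers pair the libraries. Deviations of same-numbered libraries from their group means correlated between -0.502 and 0.228 over 18 pairs of libraries, with 5 over 0.1. A differently numbered pair, A549 3D 2 and MDA-MB-231 2D 3, reached 0.501. With 3 libraries per group these correlations cannot decide the question. With the replicate number as a block, 2006 genes had opposite changes, and 91.5% of the reported opposite calls were kept. Leaving out A549 3D replicate 3 gave 2485 opposite changes. Thinning every library to the smallest total gave 1687 and kept 72.1% of the reported opposite calls, and of the 307 with 2-fold changes in each line it kept 165, so calls of both sizes depend on depth. The histone list has no value where histone genes were removed.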
